A study of Mus musculus with 4 samples.

Results

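The genes described here are 9 mitogen-activated protein (MAP) kinase genes of the mouse, found by their symbols among the 24391 genes of the count table. They are Mapk3, Mapk6, Mapk7, Mapk8 and Mapk9 together with Mapk11, Mapk12, Mapk13 and Mapk14, which encode the p38 isoforms. The set was selected on the log2 fold changes between washout and inhibitor in these same libraries, because Mapk11 did not behave like other genes that the study lists as raised by the inhibitor. The washout values of the set are therefore a description, and no p-value is given for any of the 9 genes.

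Beko is a line of mouse T-cell progenitors in which Notch signaling is always on. DAPT, a γ-secretase inhibitor (GSI), stops the cleavage that releases the active intracellular part of Notch. Gene expression was measured by RNA-Seq in 2 libraries of Beko cells after 48 h in GSI, and in 2 libraries of Beko cells that had 48 h in GSI, a wash and then 24 h of culture without it. All 4 libraries come from the same line and all had been exposed to GSI. The labels give a concentration of 10 mg/ml, whereas the study's methods give the same figure in μg/ml, and by those methods the inhibitor was renewed once. Neither source used here lists cells that were washed without prior inhibitor, so the return of Notch activity cannot be told apart from the wash and the longer culture. The labels do not say whether replicates were separate cultures, so p-values measure only the spread between these libraries, which may be technical. In bulk RNA, fewer cells with a transcript and less of it per cell cannot be told apart.

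MAP kinases are the last tier of a relay in which a MAP3K phosphorylates a MAP2K, and the MAP2K in turn phosphorylates the MAP kinase on a threonine and a tyrosine of its activation loop. The extracellular signal-regulated kinases (ERK) mostly follow growth and antigen receptor signals, whereas the c-Jun N-terminal kinases (JNK) and p38 kinases mostly follow stress and cytokines. In the thymus, ERK is required for positive selection, and p38 and JNK are also active in developing thymocytes. RNA-Seq measures the transcript of a kinase and not its phosphorylation.

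The activation loop shows how the 9 genes divide into families. Each line below gives the coding strand of 27 bases in the mm9 genome, 5′ to 3′, with capitals for the codons of the phosphorylated residues and the residue between them, and of the corresponding residues in Mapk6.
Mapk3, ERK1: ggctttctgACGGAGTATgtggccaca
Mapk7, ERK5: tacttcatgACTGAGTATgtggctact
Mapk6, ERK3: ggtcatcttTCTGAAGGAttggttacc
Mapk8, JNK1: tttatgatgACGCCTTATgtggtgact
Mapk9, JNK2: tttatgatgACTCCCTATgtggtaact
Mapk14, p38α: gatgagatgACAGGCTACgtggctacc
Mapk11, p38β: gaggagatgACCGGATATgtggccaca
Mapk12, p38γ: agtgagatgACAGGATATgtggtaacc
Mapk13, p38δ: actgagatgACGGGCTATgtggtgacc
The residue between threonine and tyrosine is glutamate in the ERK enzymes, proline in the JNK enzymes and glycine in the p38 enzymes. Mapk6 is atypical, with serine in place of the threonine and glycine in place of the tyrosine.

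These stretches lie in single coding exons. That of Mapk3 is at chr7:133906963-133906989 in exon 4 of 7, and that of Mapk7 at chr11:61304915-61304941 in exon 4 of 7 on the minus strand. That of Mapk6 is at chr9:75243435-75243461 in exon 3 of 6, also on the minus strand. The JNK stretches are in exon 6 of 12, at chr14:34206180-34206206 on the minus strand for Mapk8 and at chr11:49686323-49686349 for Mapk9. All p38 stretches are in exon 7 of 12, at chr17:28865335-28865361 for Mapk14, chr15:88976287-88976313 on the minus strand for Mapk11, chr15:88965097-88965123 on the minus strand for Mapk12 and chr17:28913280-28913306 for Mapk13. The p38 genes form neighboring pairs in the genome. On the minus strand of chromosome 15, Mapk11 ends 1782 bases before Mapk12 starts. On the plus strand of chromosome 17, Mapk14 ends 20902 bases before Mapk13 starts. The longest run of identical bases between transcripts of any 2 of the 9 genes was 26 bases, between Mapk3 and Mapk14. Coding sequences were most alike in Mapk8 and Mapk9, with 75.5% identity, followed by 70.4% for Mapk12 and Mapk13 and 70.0% for Mapk11 and Mapk14.

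The reads counted on genes came to between 13716199 and 36364200 per library, and replicate 1 was the deeper one in both conditions. A count of 3, taken as the limit of detection in a library, corresponds to between 0.0881 and 0.223 CPM, which are counts scaled to a common library total. All 6 Notch target genes used as a check of the treatment rose upon washout, by 1.31 to 3.47 on the log2 scale, past both thresholds used here (adjusted p under 0.05 and log2 fold change beyond 1, edgeR's quasi-likelihood test). Of all genes tested, 7.74% rose past both. The 6 genes were chosen with earlier results of these libraries known, so this is not an independent check. Markers of T-cell progenitors summed to between 5895 and 6371 CPM and all 12 passed the filter on low counts, whereas none of 6 B-cell markers did and 3 of these had no count. Single T-cell progenitor markers moved within that sum. At the adjusted p alone 3 were higher and 4 lower after washout, beside 27.0% and 25.4% of all genes. Their log2 fold changes ran from −1.67 to 2.37, the latter for Ptcra, which is also one of the Notch target genes. Markers of other cells also moved with the condition. The summed CPM of 8 myeloid and mast cell markers was 224.9 and 115.6 in GSI but 14.8 and 7.14 after washout, with 3 of the 8 at 0 in every library, and that of 6 erythroid and megakaryocyte markers was 13.6 and 11.2 against 5.52 and 4.76, again with 3 at 0. The sum of 6 stromal markers was 48.2 and 46.0 against 28.2 and 37.3. Their part in the values below was not tested.

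Per length, one p38 gene stood far above the others. Levels of different genes were compared as CPM per kilobase of exons. In GSI, Mapk14 came first at 35.2 ± 1.16 (SD, n = 2), followed by Mapk3 at 18.8 ± 0.351, Mapk9 at 16.1 ± 1.36, Mapk6 at 14.0 ± 0.336, Mapk7 at 7.89 ± 0.440 and Mapk8 at 5.61 ± 0.524 CPM per kilobase. The remaining p38 genes were far lower, with Mapk11 at 0.368 ± 0.00446, Mapk13 at 0.260 ± 0.0169 and Mapk12 at 0.0430 ± 0.00944 CPM per kilobase. No neighbors in this order had overlapping replicates in GSI. After washout, Mapk14 was again first at 34.5 ± 0.0288, but Mapk6 came next at 17.5 ± 2.85, ahead of Mapk3 at 13.3 ± 0.310 and Mapk9 at 13.1 ± 1.63, whose replicates overlapped. Mapk7 at 6.53 ± 1.34 and Mapk8 at 6.35 ± 1.32 also overlapped, as did Mapk13 at 0.103 ± 0.0632 and Mapk12 at 0.0669 ± 0.0726. Mapk11 was at 0.479 ± 0.0987 CPM per kilobase and apart from its neighbors. TPM scales by the summed length-adjusted counts of a library and does not use the normalization factors that CPM used. These factors were 1.08 and 1.06 in GSI, and 0.936 and 0.930 after washout. Expressed as TPM, the levels had the same order. The change between the conditions differed from that in CPM. Mapk14 was at 104.9 and 105.6 TPM in GSI and at 83.5 and 75.2 TPM after washout, without overlap. In TPM, Mapk6 was at 43.5 and 40.4 against 47.2 and 33.8, which overlapped. Mapk11 was at 1.13 and 1.07 against 0.989 and 1.20 TPM, which also overlapped. The cause was not tested. The sum of the 9 genes was 98.9 and 97.5 CPM per kilobase in GSI, and 94.7 and 89.2 after washout.

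**Figure D1:**
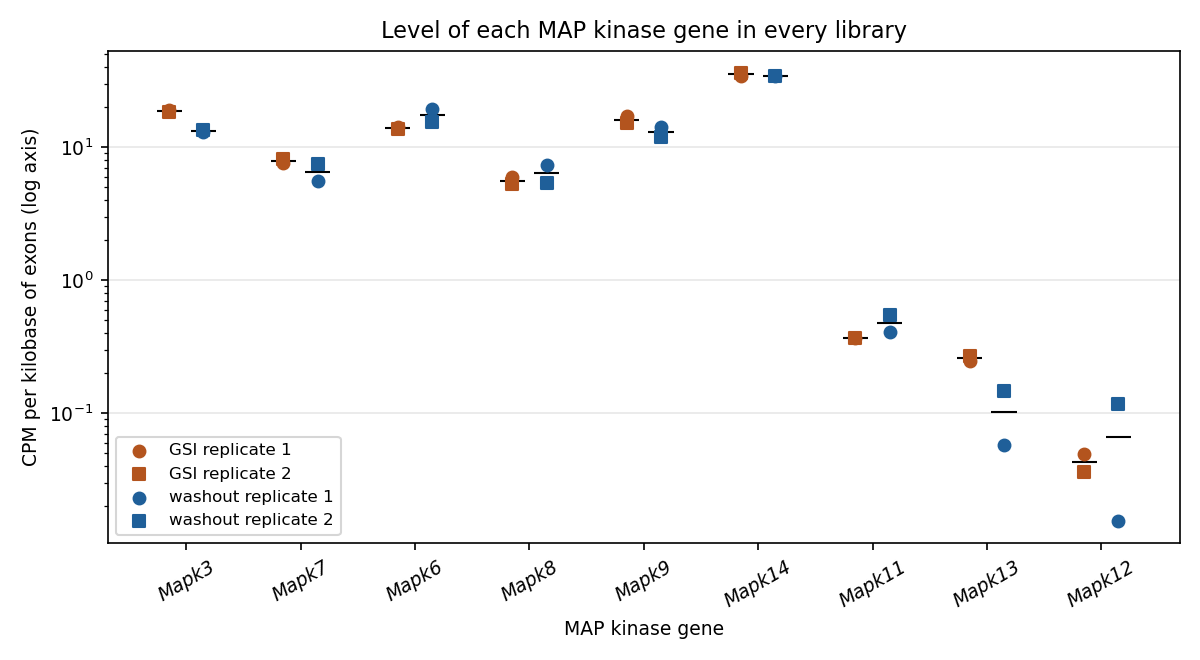
Level of each of the 9 MAP kinase genes in every library, in CPM per kilobase of exons on a log axis. Circles are replicate 1, squares replicate 2, and short lines the mean of both replicates of a condition. Mapk14 was the highest gene in all libraries, at 34.4 to 36.0, while Mapk11, Mapk13 and Mapk12 all lay under 1.

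Mapk3 and Mapk7 were slightly lower after washout. Mapk3 encodes ERK1, which carries signals from receptor tyrosine kinases and the T-cell receptor. It was measured at 41.1 and 40.0 CPM in GSI replicates 1 and 2, and at 28.3 and 29.2 CPM in the washout replicates. Both washout libraries were below both GSI libraries, and the replicates of each condition lay close together. The log2 fold change (log2FC) of washout over GSI was −0.50 with a standard error (SE) of 0.102. Mapk3 was the only one of the 9 genes with an adjusted p under 0.05 in the fit across all genes, and without GSI replicate 1 it no longer was, at a log2FC of −0.48. Of all 12266 genes tested, 52.5% were under this threshold, and nothing is read from the call. Of the exon bases of Mapk3, 58.3% are G or C, and with offsets for GC content and exon length the log2FC was −0.29.

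Mapk7 encodes ERK5, a large MAP kinase with a C-terminal extension that is phosphorylated by the product of Map2k5. Its level was 33.3 and 36.1 CPM in GSI, and 24.5 and 32.9 CPM after washout. The conditions did not overlap, but washout replicate 2 lay next to the GSI libraries. The log2FC was −0.28 (SE 0.161). Without washout replicate 1 it was −0.07, without washout replicate 2 −0.50, and with the offsets for GC content and length −0.01. Mapk7 also shares 89 exon bases with Mfap4 on the other strand, and the strand setting of the counting is not given in the sources used here, so its counts are uncertain.

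The atypical Mapk6 encodes ERK3, a short-lived kinase that binds the p38 substrate kinase MK5. Its transcript was at 95.0 and 91.8 CPM in GSI, and at 130.3 and 103.4 CPM after washout. Both washout libraries were higher, with replicate 1 well above replicate 2. The log2FC was 0.33 (SE 0.128), and it was 0.15 without washout replicate 1. Without normalization factors, where the median of all genes was −0.21, it was 0.13.

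The JNK genes differed in direction, although their replicates were spread. Mapk9 encodes JNK2 and was at 115.7 and 102.7 CPM in GSI against 96.6 and 81.0 CPM after washout. The conditions did not overlap, but the gap between them was smaller than the difference between the replicates of either condition. Its log2FC was −0.30 (SE 0.122), and between −0.43 and −0.18 with 1 library left out. Mapk8, which encodes JNK1, was at 55.4 and 48.5 CPM in GSI against 67.4 and 50.2 CPM after washout. The second washout library lay between the GSI libraries. The log2FC was 0.18 (SE 0.159), −0.05 without washout replicate 1 and −0.02 without normalization factors.

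Since both JNK genes are read from the same library, their ratio does not depend on the scaling. Per length, Mapk9 exceeded Mapk8 by 2.85 and 2.89 times in GSI, and by 1.96 and 2.20 times after washout. The corresponding ratio of counts was 2.09 and 2.12 against 1.43 and 1.61. The ratios of the conditions did not overlap, and the replicates lay closer to each other than to the other condition. The sum of both JNK genes was 23.0 and 20.4 CPM per kilobase in GSI, and 21.5 and 17.4 after washout, which overlapped.

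**Figure D2:**
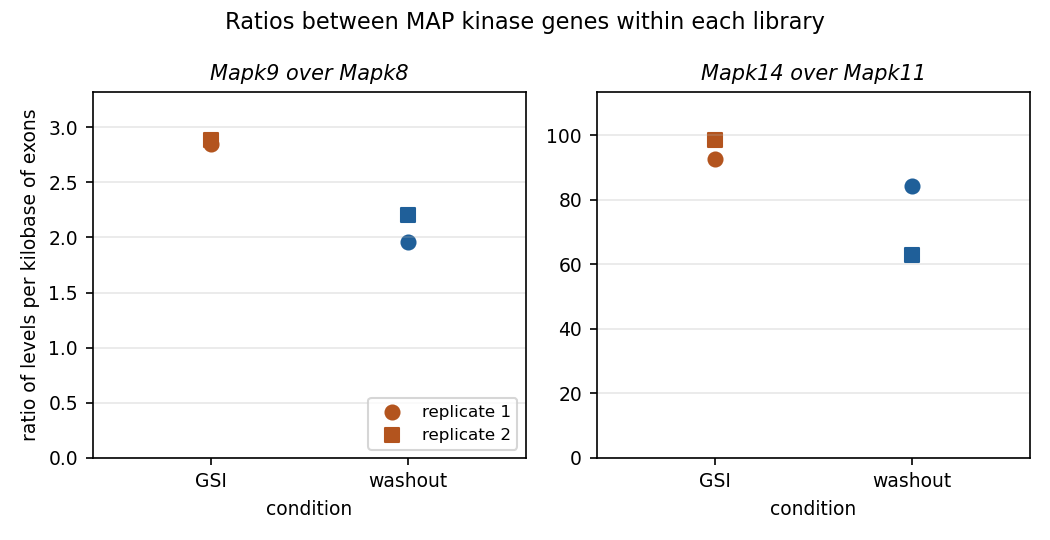
Ratio of the levels per kilobase of exons between related MAP kinase genes within each library, with 1 panel per pair and axes that start at 0. Circles are replicate 1 and squares replicate 2. The Mapk9 over Mapk8 ratio was 2.85 and 2.89 in GSI and 1.96 and 2.20 after washout, and the Mapk14 over Mapk11 ratio was 92.5 and 98.6 against 84.4 and 62.9.

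Among the p38 genes, Mapk14 made up nearly all of the transcript in every library. It encodes p38α, the widely expressed isoform that phosphorylates the kinases MK2 and MK3 as well as several transcription factors. Mapk14 was at 149.8 and 157.0 CPM in GSI, and at 150.6 and 150.5 CPM after washout. Both washout libraries lay between the GSI libraries. The log2FC was −0.03 (SE 0.0896), and between −0.06 and 0.01 with 1 library left out. Without normalization factors it was −0.23, and in TPM both washout libraries lay below both GSI libraries. Mapk14 held 98.1% and 98.2% of the p38 level per length in GSI, and 98.6% and 97.7% after washout. The sum of the 4 p38 genes was 35.0 and 36.7 CPM per kilobase in GSI, and 35.0 and 35.3 after washout.

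Mapk11 encodes p38β, the isoform closest to p38α. It had 29 and 13 counts in GSI, and 34 and 18 counts after washout, which is 0.906 and 0.891 against 0.999 and 1.34 CPM. All libraries were above the limit of detection, and the conditions did not overlap, but the higher washout value came from the shallower library. The log2FC was 0.34 (SE 0.357), and between 0.15 and 0.57 with 1 library left out. From the summed counts, 42 in GSI and 52 after washout, the ratio of GSI over washout was 0.823, with an exact 95% interval of 0.535 to 1.26 that covers counting error only. At this depth neither a difference nor its absence can be shown. Mapk11 held between 0.996% and 1.55% of the p38 level per length, and the level of Mapk14 exceeded it by 92.5 and 98.6 times in GSI and by 84.4 and 62.9 times after washout.

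The pattern that led to the choice of these genes rests on such low counts. The study lists genes whose expression was raised by the inhibitor, and Mapk11 is among them. Its comparison of the inhibitor with the control DMSO used earlier RNA-Seq of Beko cells treated for 24 h. The 4 libraries described here hold no cells without GSI exposure, so they cannot show which genes it raised. The 35 such genes used here were chosen with earlier results of these libraries known, and may not stand for all genes the study lists. Of them, 34 were tested in the washout comparison, and Mapk11 had the highest log2FC. The next highest was −0.43, and the median of the other 33, which were all below 0, was −2.07. This sets Mapk11 apart by construction and is not a test. Among 1403 tested genes of similar abundance, those whose profile over the 4 libraries was nearest to Mapk11 were 2500002B13Rik, Olfr543 and Kcnab1, at Euclidean distances of 0.0657, 0.146 and 0.154 on the log2 CPM scale after centering. All of these had low counts, and 2500002B13Rik had 34, 15, 41 and 22 in GSI replicates 1 and 2 and washout replicates 1 and 2. Over 4 libraries of 2 conditions, such likeness is a description only.

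The last pair of p38 genes was barely expressed, and neither passed the filter on low counts. Mapk13 encodes p38δ and had 12 and 6 counts in GSI against 3 and 3 after washout. The washout libraries were at the limit of detection, and both GSI libraries were above it. The ratio of GSI over washout from the sums of 18 and 6 counts was 3.06 with an exact 95% interval of 1.16 to 9.41, which does not include the spread between replicates. Mapk12, encoding p38γ, had 3 and 1 counts in GSI and 1 and 3 counts after washout. Every library was at or under the limit of detection, so no fold is given.

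Across the 9 genes, 7 passed the filter on low counts, and 5 of these 7 had conditions that did not overlap in CPM, against 77.3% of all genes tested. Mapk6 and Mapk11 were the 2 that were higher after washout (38.2% of all genes), and Mapk3, Mapk7 and Mapk9 were the 3 that were lower (39.1%). None of the 7 was past both thresholds with edgeR (3 had an unadjusted p under 0.05, none of these with a log2FC beyond 1), and none was with DESeq2, whereas 19.5% of all genes were. All 7 lay within 0.5 of 0 on the log2 scale, as did 49.5% of all genes, and their median log2FC was −0.03 against −0.01 for all genes. As the rule used this contrast, nothing is read from these counts. With all 4 libraries, the number of these genes with an adjusted p under 0.05 depended on the model. It was 1 in the reported fit, beside 52.5% of all genes, and 4 when the replicate number was also fitted, beside 69.0% of all genes.

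**Figure D3:**
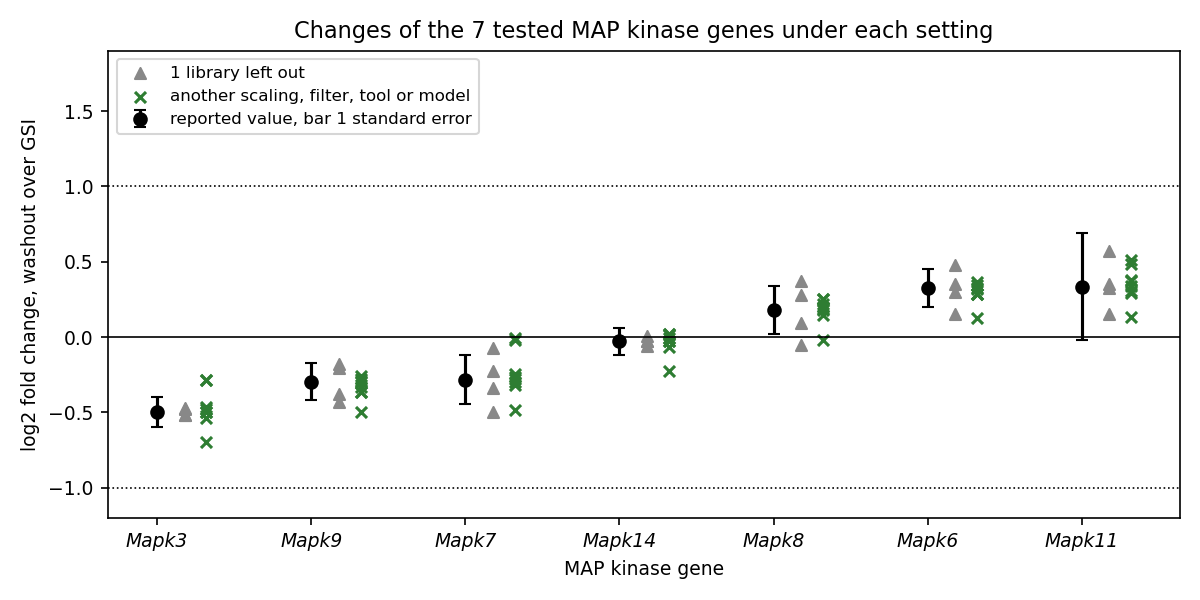
Log2FC of washout over GSI for the 7 MAP kinase genes that passed the filter on low counts. Black points are the reported values with bars of 1 SE, triangles leave out 1 library, crosses use another scaling, filter, tool or model, and dotted lines mark the log2FC threshold of 1. Mapk3 stayed between −0.70 and −0.29, while Mapk8 and Mapk14 crossed 0 in some settings.

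The rest of the relay was counted in lists of pathway genes, which were chosen with earlier results of these libraries known. Of 91 listed genes, 79 were tested. Upon washout, 11 fell past both thresholds with edgeR, which is 13.9% of them beside 11.7% of all genes. None rose past both, beside 7.74% of all genes, and none did with DESeq2. The highest log2FC of a pathway gene in edgeR was 0.58, so none could pass with an unadjusted p either. At the adjusted p alone, 40 were lower and 7 higher, which is 50.6% and 8.86% beside 25.4% and 27.0% of all genes. The counts of each list below stand beside the same shares of all genes, 25.4% lower and 27.0% higher, or 11.7% lower past both thresholds. The median log2FC of the 79 genes was −0.43. With offsets for GC content and exon length, 75 pathway genes were tested, of which 34 were lower and 9 higher, with a median of −0.21. Of all 10962 genes in that fit, 2998 were lower and 3264 higher. Without normalization factors 49 pathway genes were lower and none higher, beside 4250 lower and 2315 higher of all 12266 genes. The 7 higher genes became 1 without GSI replicate 1, 0 without GSI replicate 2 and 3 without washout replicate 1.

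The 7 MAP2K genes encode the direct activators of MAP kinases. At the adjusted p alone 1 was lower and 1 higher, and the median log2FC was 0.07. Map2k5, the activator of ERK5, was at 49.7 and 48.3 CPM in GSI and at 31.6 and 33.9 CPM after washout. It fell by 0.58 on the log2 scale (SE 0.101, adjusted p = 0.00429), and no replicates overlapped. Map2k4, an activator of JNK, was at 54.5 and 49.9 CPM in GSI and at 69.6 and 61.8 CPM after washout, a log2FC of 0.33 (adjusted p = 0.0397). It no longer passed without GSI replicate 1 (0.40), GSI replicate 2 (0.27) or washout replicate 1 (0.25), with the offsets for GC content and length (0.17) or with at least 10 counts in every library (0.30). The p38 activators Map2k3 and Map2k6 had log2FC of 0.07 (adjusted p = 0.643) and 0.03 (adjusted p = 0.839). The ERK activators Map2k1 and Map2k2 had log2FC of 0.17 (adjusted p = 0.145) and 0.16 (adjusted p = 0.268), and the JNK activator Map2k7 −0.12 (adjusted p = 0.290), with 1159 exon bases of Map2k7 shared with another gene on the same strand.

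Further upstream, 10 of 22 tested genes of the MAP3K tier were lower at the adjusted p alone. Map3k8, which encodes the ERK pathway kinase Tpl2, was the one that passed both thresholds, but from few reads, with 23 and 15 counts in GSI against 0 and 3 after washout. Its ratio of GSI over washout was 12.9, with an exact 95% counting interval of 4.10 to 65.4, and the adjusted p was 0.0248. It did not pass without GSI replicate 2 (log2FC −3.33) or without washout replicate 1 (−1.89). Of 7 MAP4K genes, which act above the MAP3K tier, 5 were lower at the adjusted p alone. Map4k5 fell by 1.74 on the log2 scale (adjusted p = 0.00498) and passed both thresholds, although it overlaps genes on the other strand.

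Scaffolds, which hold the tiers together, had 4 lower and 1 higher of 10 tested genes at the adjusted p alone. Mapk8ip1, the JNK scaffold JIP1, was at 12.1 and 15.4 CPM in GSI and at 5.82 and 7.14 CPM after washout, a fall of 1.09 on the log2 scale (adjusted p = 0.00616). Its log2FC was −0.91 without GSI replicate 2 and −0.93 without washout replicate 1, short of the threshold of 1, and it overlaps a gene on the other strand. Lamtor3, the adaptor MP1 of the ERK pathway, had a log2FC of 0.46 (adjusted p = 0.0163), which did not pass without GSI replicate 1 (0.41), without GSI replicate 2 (0.51) or with the offsets for GC content and length (0.16).

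The kinases that MAP kinases phosphorylate had 7 lower and 1 higher of 10 tested genes at the adjusted p alone. Among the p38 substrates, Mapkapk3, which encodes MK3, was at 14.9 and 17.5 CPM in GSI and at 6.17 and 6.92 CPM after washout. This is a fall of 1.31 on the log2 scale (SE 0.176, adjusted p = 0.00165), with both washout libraries far below both GSI libraries. Mapkapk2, which encodes MK2, was more abundant, at 104.7 and 96.8 CPM in GSI and 87.3 and 94.0 CPM after washout, and its log2FC was −0.16 (adjusted p = 0.221). Mapkapk5, which encodes MK5, the partner of ERK3, had a log2FC of 0.26 (adjusted p = 0.0493) and did not pass when any 1 of the 4 libraries was left out (0.24 to 0.29). Of its exon bases, 771 are shared with genes on the same strand. Rps6ka2, the ERK substrate RSK3, fell by 1.10 on the log2 scale (adjusted p = 0.0117), which did not pass without GSI replicate 1 (−1.11) or washout replicate 1 (−0.98).

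The phosphatases of MAP kinases, which remove the phosphates from the activation loop, had 4 of 10 tested genes lower past both thresholds, and 5 lower and 2 higher at the adjusted p alone. Dusp6, a cytoplasmic phosphatase of ERK whose own transcript is induced by ERK signaling, was at 41.7 and 47.4 CPM in GSI and at 7.52 and 11.5 CPM after washout. It fell by 2.26 on the log2 scale (SE 0.212, adjusted p = 0.000582). Dusp5, a nuclear phosphatase of ERK, was at 14.4 and 9.53 CPM in GSI and at 2.67 and 4.32 CPM after washout, a fall of 1.84 (adjusted p = 0.00430). The other falls past both thresholds were those of Dusp1 by 1.35 (adjusted p = 0.0368) and Dusp2 by 1.31 (adjusted p = 0.000467), both immediate early genes, which are named after their values were seen. Dusp1 did not pass without GSI replicate 1 (−0.51) or washout replicate 2 (−1.21). Dusp9 had the largest rise at the adjusted p alone, 0.47 (adjusted p = 0.0333), and did not pass without GSI replicate 1 (0.38), GSI replicate 2 (0.54) or washout replicate 1 (0.34). The other rise, also named after its value was seen, was that of Dusp10, a phosphatase of p38 and JNK, at 173.2 and 158.5 CPM in GSI and 216.1 and 227.1 CPM after washout. Its log2FC was 0.42 (SE 0.0988, adjusted p = 0.0140), which did not pass without GSI replicate 1 (0.48) or GSI replicate 2 (0.36).

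Of 10 tested transcription factors that MAP kinases phosphorylate, 6 were lower and 1 was higher at the adjusted p alone. Elk3, a ternary complex factor, was at 36.9 and 36.0 CPM in GSI and at 17.0 and 17.7 CPM after washout, a fall of 1.07 on the log2 scale (adjusted p = 0.000743), although it overlaps a neighboring gene. Mef2b, of the MEF2 family that p38 and ERK5 phosphorylate, had a log2FC of 0.58 (adjusted p = 0.0127) and did not pass without GSI replicate 2 (0.52). All 1342 of its exon bases are shared with 2310045N01Rik on the same strand, so that its counts cannot be assigned to Mef2b alone.

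**Figure D4:**
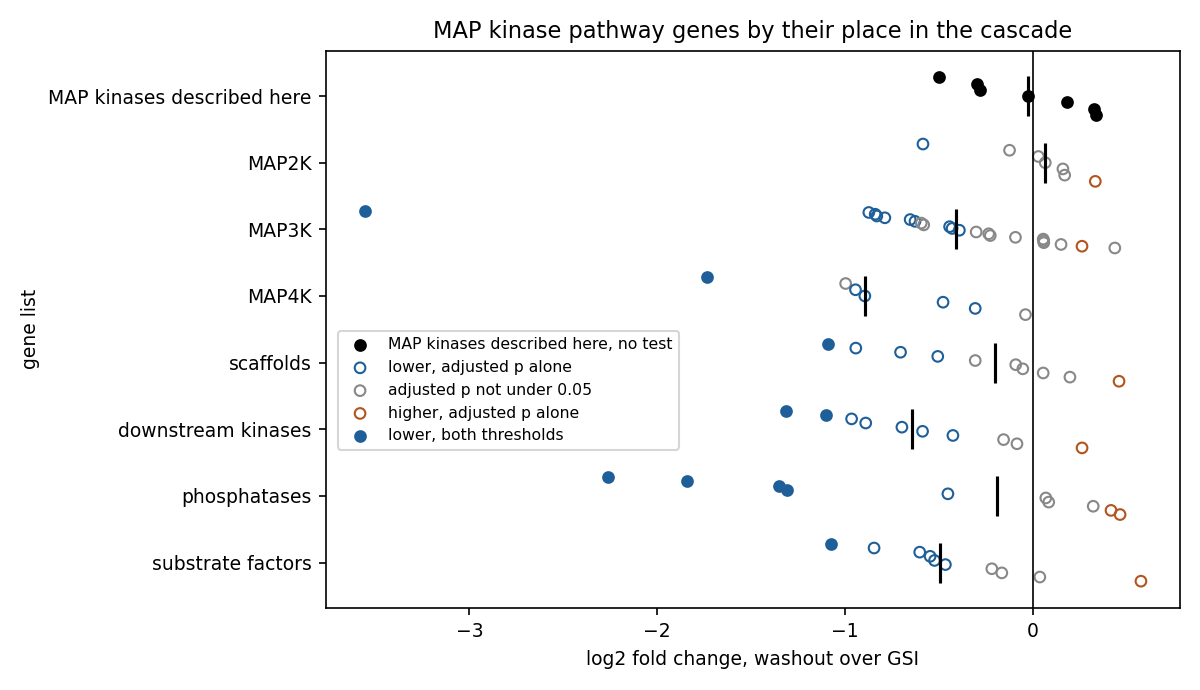
Log2FC of washout over GSI for the tested MAP kinase genes and 7 lists of pathway genes, with 1 point per gene and a black line at each median. Filled blue points passed both thresholds, open colored points the adjusted p alone, and black points are the 7 MAP kinase genes described here. The MAP kinases and the MAP2K list had medians of −0.03 and 0.07, and the other lists had medians between −0.89 and −0.19.

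Other MAP kinase genes outside the 9 were also measured. Mapk15, which encodes the atypical ERK8, had 39 and 16 counts in GSI and 4 and 1 after washout. Its log2FC was −3.42 (SE 0.491, adjusted p = 0.00215), and the ratio of GSI over washout was 11.2 with an exact 95% counting interval of 4.52 to 35.9. Nlk, a kinase of the Wnt pathway, was at 61.5 and 59.6 CPM in GSI and 50.1 and 48.1 CPM after washout, a log2FC of −0.30 (adjusted p = 0.0334), which did not pass when any 1 of the 4 libraries was left out (−0.33 to −0.27). Mapk4 had 0, 1, 1 and 0 counts, and Mapk10, the JNK3 gene of neurons, had none in any library.

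RBPJ, the DNA-binding partner of active Notch, recognizes the letters TGGGAA. RefSeq promoter windows of 300 bases on the GRCm38.p6 build were searched for them on either strand. Windows were given for 8 of the 9 genes, all but Mapk3, with 12 windows in total. The letters were in 4 of these, 1 of Mapk13, 1 of the 2 of Mapk14 and the 2 of Mapk7, which overlap each other and share the match. They were in 25.6% of all 32851 windows. A match is a description of the letters only, and binding was not analysed here.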

How the data were processed

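RNA was sequenced from 4 libraries with a stranded total RNA kit that removes ribosomal RNA. Trimmed reads were aligned by the authors to mm9 with HISAT2 2.2.1 (version from the submitters' processing notes, which also list DESeq2 1.24.0), with 1 alignment kept per read, and raw counts per gene were deposited. The overlap mode and strand setting are not given in the sources used here. Positions, exon lengths and GC content came from GENCODE vM1, matched by symbol for 20641 of 24391 genes.

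The 9 members and all gene lists were chosen with earlier results of these data known. The comparison of washout and GSI used edgeR 4.0.16 (R 4.3.3, filterByExpr, TMM factors, quasi-likelihood test, no covariates, Benjamini-Hochberg adjustment over 12266 genes). SE were obtained from the log2FC and its F statistic (log2FC over root F). The biological coefficient of variation was 0.121. Replicates differed by more than sampling noise (chi-square per degree of freedom of 18.2 in GSI and 28.5 after washout). Scripts were tested on simulated data. CPM used TMM-scaled library sizes. Exact intervals of ratios treat counts as Poisson. Reads carry no molecular identifiers, so these intervals and the limit of 3 counts cover counting error only.

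Named by rule were the 9 genes, all MAP2K genes, Mapkapk2, Mapkapk3, Mapkapk5, all other MAP kinase genes, the 3 genes nearest to Mapk11, the Notch targets, and in each other list the 2 largest rises and 2 largest falls past both thresholds or, where none passed in a direction, the largest change at the adjusted p alone. Of these, 2 genes are not reported here. Alternatives were DESeq2 1.42.0, RLE factors, no normalization factors, 2 other filters on low counts, a replicate block, offsets for GC content and length with and without that block (10962 genes with both features, 89.4% of those tested), the adjusted p alone, and leaving out each library, where the lone library is assumed to vary like the other condition.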

Additional observations from a re-analysis of the deposited data

How the results depend on the processing

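None of the 9 genes passed both thresholds under any alternative run. Without normalization factors, the median log2FC of the 7 tested genes was −0.23 against −0.03, the genes higher past both thresholds numbered 586 against 950 (23.0% against 39.8% of those called, beside 1963 lower), and 20 pathway genes were lower against 11. At the adjusted p alone, 3315 genes were higher and 3120 lower, and of pathway genes 7 were higher and 40 lower. Mapk3 stayed below 0 throughout, and its adjusted p rose above 0.05 without GSI replicate 1 alone. Small values changed sign, and none of these had passed in the reported fit. Without normalization factors, log2FC were −0.029 for Map2k1, −0.039 for Map2k2, −0.13 for Map2k3 and −0.17 for Map2k6. Map2k6 was also −0.0080 with at least 10 counts in every library, −0.16 with offsets for GC content and length, −0.15 with these and a replicate block, and between −0.068 and 0.13 with 1 library left out. Map2k7 was 0.18 with the offsets, with and without the block, and Map2k3 was between −0.0050 and 0.13 with 1 library left out. Map2k7 passed the adjusted p as higher with the offsets and block. Without normalization factors, Map2k7 (−0.32) and Mapkapk2 (−0.36) passed it as lower. All 6 named genes higher at the adjusted p alone (Map2k4, Lamtor3, Mapkapk5, Dusp9, Dusp10 and Mef2b) lost that call without normalization factors, as did Map2k4, Mapkapk5, Dusp9 and the lower Nlk with DESeq2. With the offsets, Mapk8ip1 (−0.78) and Rps6ka2 (−0.88) were short of a log2FC of 1, and Map2k2 (0.40) passed the adjusted p. The cause was not tested.

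Replicate numbers are shared between the conditions, but nothing says what a number stands for, and the differences between replicates correlated at 0.497 across genes between the conditions. With the replicate number as a block, 981 genes were higher and 1576 lower past both thresholds, of pathway genes none and 12, and Mapk3, Mapk6, Mapk7 and Mapk9 had an adjusted p under 0.05, as did 69.0% of all genes. Depth limits Mapk11, Mapk12 and Mapk13, which had at most 34 counts in any library.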
